A study of Morus alba var. atropurpurea with 12 samples.

Results

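Roots of mulberry kept at 20 mM cadmium chloride, the highest dose that the labels name, were compared with roots kept without cadmium. The libraries were chosen by their titles, 3 at 20 mM and 3 controls, which makes 6 of the 12 libraries in the series. All plants were seedlings of the cultivar Yuesang10 of Morus alba var. atropurpurea. They were raised in soil, cut back at shoot (10 cm) and root (2 cm), and given 3 days in full-strength Hoagland nutrient solution. They were then held for 20 days in the same solution, changed every 5 days. It held 20 mM cadmium chloride in the treated group and no added cadmium in the control group. The other 6 libraries came from roots at 5 and 10 mM and entered the same statistical fit. The labels do not say how many plants or pots stand behind a group, so p-values measure the spread between these libraries, which may be technical, and a pot and a dose cannot be told apart. The labels give root as the tissue, although the text of the series speaks of fruit, and they speak of 6 groups of plants while naming 3 doses and a control. The deposited tables hold XM transcript identifiers with no gene names, so neither root markers nor families of metal-handling genes could be looked up, and transcripts are described by identifier and by level.

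Cadmium has no known use in higher plants. It enters root cells through transporters that serve iron, zinc, manganese and calcium, and inside the cell it binds thiol groups and displaces other metals from proteins. Plants are known to answer it by making glutathione-derived phytochelatins, by moving the metal into the vacuole, by raising antioxidant enzymes and chaperones, and by slowing root growth. Which of the transcripts described here belong to these processes was not analysed.

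Expression was deposited as FPKM, fragments scaled to transcript length and to the mapped fragments of the library. The control libraries listed 19921, 19381 and 20001 transcripts above 0, and the 20 mM libraries listed 19507, 19652 and 19755. The 2 sets overlapped, and their difference in means of -129.7 transcripts was within the spread between libraries (exact permutation test, two-sided, p = 0.6, where 0.1 is the smallest p that 3 against 3 can give). The 10 highest transcripts took between 5.43% and 7.26% of a control library and between 6.87% and 7.30% of a 20 mM library (exact permutation p = 0.7). Across the 17782 tested transcripts, Pearson correlations between log2 profiles ran from 0.943 to 0.963 within the 20 mM group, from 0.948 to 0.951 within the control group and from 0.912 to 0.949 between the groups. The number of reads is unknown, but steps between low values gave the FPKM worth of 1 read relative to the mean library, a value that is lower in deeper libraries. It was 1.05 ± 0.0117 in control and 0.985 ± 0.0181 at 20 mM (SD, n = 3), with no overlap between the groups, so the treated libraries were slightly deeper. The part of depth in the results below was not tested. On the first principal component, which held 20.3% of the variance, the 20 mM libraries stood at 33.6, 46.3 and 30.3 and the controls at -51.2, -21.6 and -26.1. On the second component, which held 16.2%, the groups overlapped, with 20 mM at -1.2, -37.6 and 29.3 and controls at 8.1, 51.95 and -5.4. Libraries of the same group thus also lay far apart there. On the first component 1 library of another dose, 10 mM replicate 1, stood at -21.1, apart from the other 10 mM libraries at 33.2 and 23.9. Several of the differences and counts at 10 mM below are given with and without it.

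At 20 mM cadmium, 103 transcripts rose and 123 fell against the control, 0.579% and 0.692% of the 17782 tested and 1.27% together. A change was called where the adjusted p of limma on log2(FPKM + 1) was under 0.05. Those that rose had a median level of 9.64 FPKM in control roots and 35.4 FPKM at 20 mM, and those that fell went from 34.0 to 7.32 FPKM. The falling transcripts thus lay above the rising ones in control roots and below them at 20 mM, an order that the choice by direction favours. The quartiles of the log2 change were 1.24 and 2.18 for the rising transcripts and -2.53 and -1.35 for the falling ones, and -0.25 and 0.35 over all tested transcripts. A log2 change of at least 2 in size was reached by 33 of the 103 and by 54 of the 123, and one of at least 3 by 6 and by 13. The smallest change that was called was 0.67 in size. Called values were picked by the test, so these sizes describe the called transcripts and support no further statement.

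The balance of the 2 directions depended on how libraries were scaled. Called transcripts leaned to the falling side, with 45.6% of the 226 higher, and after the libraries were set to a common median 79 were higher and 162 lower, which put 32.8% on the higher side. Before that scaling, transcripts with no overlap between the 3 treated and the 3 control libraries leaned the other way, with 2162 higher at 20 mM (12.2% of those tested) and 1516 lower (8.53%), 20.7% in all. The unadjusted p was under 0.05 for 1634 higher (9.19%) and 1238 lower (6.96%) transcripts, 16.2% together, and median scaling turned this into 1208 higher and 1644 lower. Quantile normalization left the lean of the unadjusted p-values on the higher side, with 1501 higher and 1406 lower, and called 99 higher and 138 lower. The median log2 change of all tested transcripts was 0.06 as deposited, -0.02 after median scaling and 0.03 after quantile normalization.

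**Figure D1:**
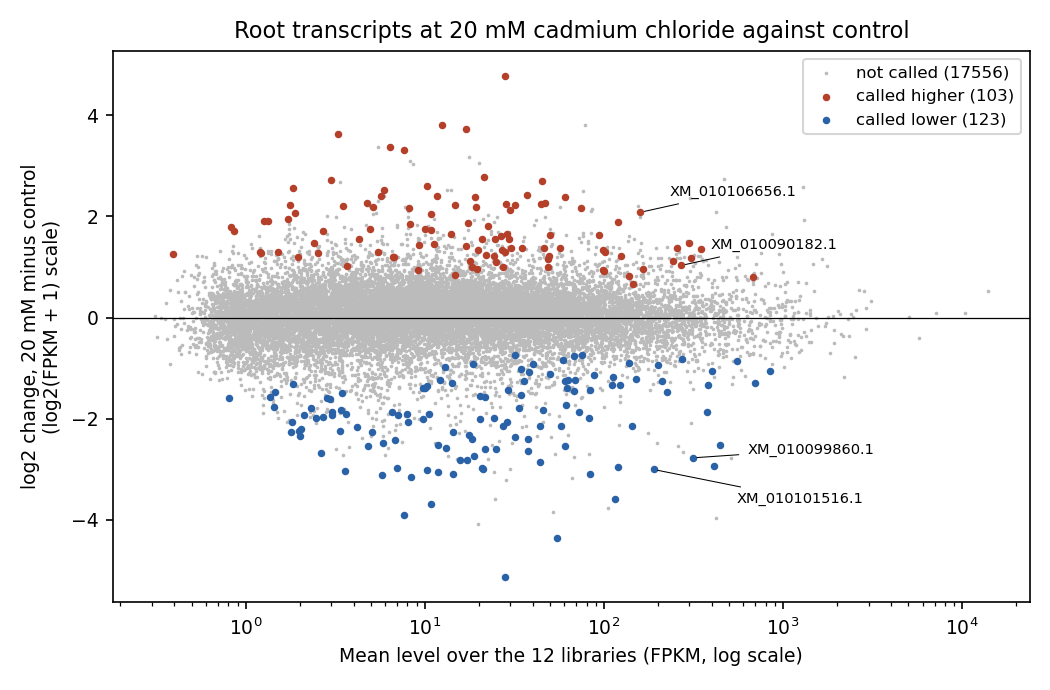
Each point is 1 of 17782 tested transcripts, with its mean level over the 12 libraries (FPKM, log scale) on the horizontal axis and its log2 change from control to 20 mM on the vertical axis. The 103 called higher (red) and 123 called lower (blue) are spread over low and high levels, and many grey points with large changes were not called.

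In each direction, 2 transcripts are described, those with the largest difference in mean FPKM among called transcripts whose groups did not overlap and whose call held when any 1 of the 6 libraries was left out. XM_010106656.1 was measured at 55.7, 94.51 and 81.8 FPKM in control roots, and at 349.31, 290.69 and 331.84 FPKM in roots with 20 mM cadmium. Every treated library was far above every control library. Its group mean was 77.3 ± 19.8 FPKM without and 323.9 ± 30.1 FPKM with cadmium (SD, n = 3), and the rise of 2.08 ± 0.20 log2 units (SE) passed the test (limma adjusted p = 0.000674). With 5 mM cadmium its level overlapped that of the control (91.14, 97.86 and 81.68 FPKM), and with 10 mM it was intermediate (137.58, 140.32 and 164.14 FPKM). The 10 mM libraries thus overlapped with neither the controls nor the 20 mM libraries. The log2 difference between 20 and 10 mM, 1.13 ± 0.20 (SE), did not pass the test (limma adjusted p = 0.1105). Without 10 mM replicate 1 it was 1.085 ± 0.22 (limma adjusted p = 0.253).

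XM_010090182.1 was already abundant in control roots, at 182.88, 181.03 and 172.97 FPKM. The treated libraries held 351.63, 384.1 and 365.23 FPKM, a rise of 1.03 ± 0.16 log2 units (SE, limma adjusted p = 0.00992). Its libraries agreed closely within both groups, with an SD of 5.27 FPKM in control and 16.3 FPKM at 20 mM. The lower doses lay between. Its 5 mM libraries held 238.31, 239.75 and 195.21 FPKM, and its 10 mM libraries held 266.83, 336.26 and 330.13 FPKM. The highest 10 mM library was below the lowest 20 mM library, but the difference between the doses, a log2 change of 0.24 ± 0.16, did not pass the test (limma adjusted p = 0.648). Without 10 mM replicate 1 it was 0.14 ± 0.16 (adjusted p = 0.855).

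XM_010099860.1 had the largest loss in FPKM of the transcripts chosen this way. Control roots held 360.32, 391.96 and 606.48 FPKM, and roots with 20 mM cadmium held 81.44, 36.64 and 85.64 FPKM. The means were 452.9 ± 133.9 and 67.9 ± 27.2 FPKM (SD, n = 3), and the log2 difference was -2.78 ± 0.36 (SE, limma adjusted p = 0.00567). With 10 mM its level was already low, 84.85, 66.22 and 107.05 FPKM, which overlapped the 20 mM libraries. With 5 mM its level was high, 459.83, 915.36 and 566.93 FPKM, so its drop in mean level lay between 5 and 10 mM.

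XM_010101516.1 followed another course. Its control libraries held 206.81, 187.68 and 303.96 FPKM, and its 20 mM libraries held 51.58, 27.41 and 14.47 FPKM. The means were 232.8 ± 62.4 and 31.2 ± 18.8 FPKM (SD, n = 3), and the log2 difference was -3.00 ± 0.43 (SE, limma adjusted p = 0.00856). The 5 mM libraries held 208.8, 273.18 and 293.15 FPKM. The 10 mM libraries held 369.48, 142.54 and 189.48 FPKM, and both sets overlapped the controls. All 3 libraries at 10 mM lay above all 3 at 20 mM, and the log2 difference between these doses of -2.93 ± 0.43 missed the threshold (limma adjusted p = 0.0552). The highest of the 10 mM values belonged to replicate 1, the library that stood apart, and without it the difference was -2.54 ± 0.42 (adjusted p = 0.207).

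**Figure D2:**
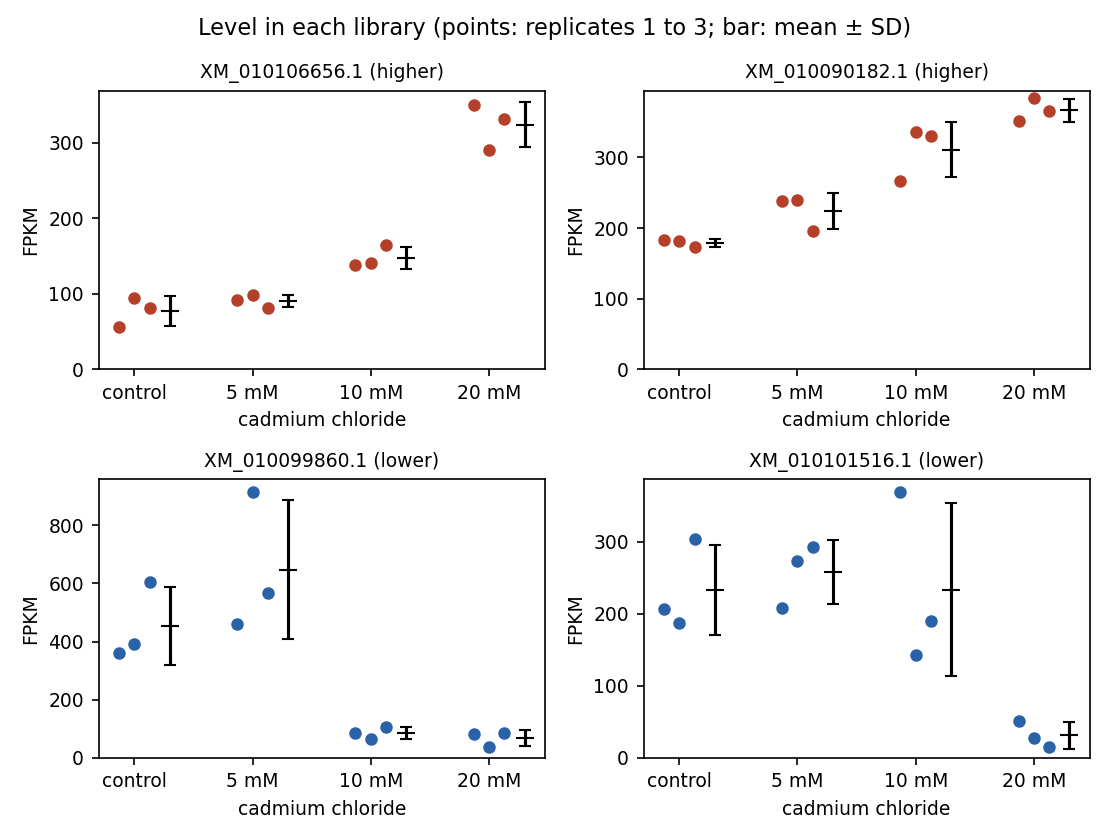
Level (FPKM, linear axis from 0) of the 4 transcripts in each of the 12 libraries, by dose of cadmium chloride, with points for replicates 1 to 3 and a bar for the mean ± SD of each group. XM_010106656.1 and XM_010090182.1 are higher at 20 mM than in control, XM_010099860.1 is low from 10 mM on, and XM_010101516.1 is low at 20 mM.

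Some transcripts were listed in all libraries of one group and in none of the other. There were 66 listed in all 3 libraries at 20 mM and in no control, of which 16 passed the filter on low values, and 77 listed in all 3 controls and in no 20 mM library, of which 18 passed it. Most were low, with a median of the group means of 0.578 FPKM for the 66 and 0.517 FPKM for the 77, a range in which few reads stand behind a value. Of the tested ones, 7 of 16 were called higher and 5 of 18 lower, where 0.579% and 0.692% of all tested transcripts were. Absence from one of the groups compared had picked them, so these shares show nothing further. The 7 lay between 1.24 and 64.15 FPKM at 20 mM, and 6 of them were listed in some library at 5 mM. At 10 mM, replicates 1, 2 and 3 listed 7, 4 and 5 of them, and without replicate 1 those listed in some library numbered 5 in place of 7. The 5 lay between 1.35 and 32.9 FPKM in the controls and were listed in every 5 mM library. At 10 mM all 5 were listed in replicate 1, at 0.74 to 11.36 FPKM, while 2 were listed in replicate 2 and 1 in replicate 3. Without replicate 1, 3 of the 5 were listed in some 10 mM library. Replicate 1 thus listed more than the other 10 mM libraries of both sets.

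Calls were made at all levels of expression. Among 8425 tested transcripts with a mean under 10 FPKM over the 12 libraries, 36 rose and 39 fell (0.890%), among 7467 with 10 to 100 FPKM 53 rose and 62 fell (1.54%), and among 1890 with 100 FPKM or more 14 rose and 22 fell (1.91%). The median SE of a log2 change was 0.34, 0.25 and 0.24 in these 3 classes. The median called change was smaller in the highest class, at 1.20 for those that rose and -1.33 for those that fell, than in the lowest, at 1.78 and -1.99. Of the 100 transcripts with the highest control means, 72 were also among the 100 highest at 20 mM, and of the 20 highest, 13 were. A ranking by the mean over the 12 libraries, chosen after the data were seen because a ranking by control means favours falls, gave 100 transcripts with a median log2 change of 0.01, where the ranking by control means gave -0.19. Among these limma called 0, where 1.27% of all tested transcripts were called, and an unadjusted p under 0.05 was found for 6 higher and 10 lower, against 9.19% and 6.96% of all tested.

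The called transcripts made up a small part of the root transcriptome. Those called higher held 0.317%, 0.314% and 0.374% of the FPKM sum in the 3 control libraries and 0.891%, 0.914% and 0.789% in the 3 libraries at 20 mM. Those called lower held 1.48%, 1.35% and 1.47% in control and 0.543%, 0.438% and 0.477% at 20 mM. They were chosen on this contrast, so no test is given. Together they accounted for 5.50% of the summed absolute difference in mean FPKM between the groups, 1.99% in those that rose and 3.52% in those that fell. The larger part of that sum lay in transcripts that did not pass the test or the filter.

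**Figure D3:**
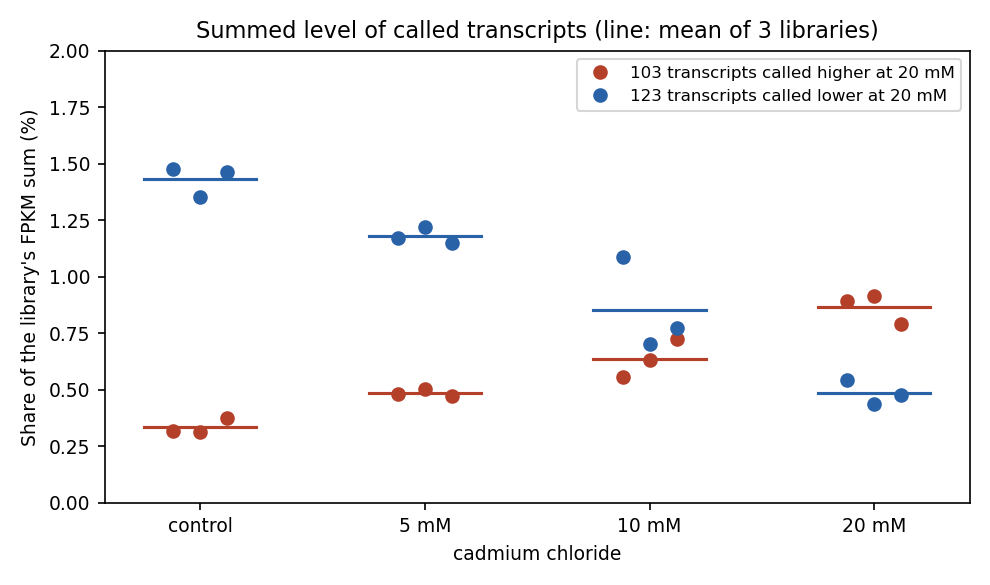
Share of each library's FPKM sum (percent) held by the 103 transcripts called higher and the 123 called lower at 20 mM, by dose of cadmium chloride, with points for the libraries and lines for group means. The share of the 123 is 1.35% to 1.48% in control and 0.438% to 0.543% at 20 mM, and 10 mM replicate 1 at 1.09% stands above the other 10 mM libraries.

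The lower doses show where the 226 transcripts moved. They were picked for their change at 20 mM, and every dose was set against the same controls, so the counts are descriptions. On the log2 scale, 30 of the 103 rising transcripts had passed the midpoint between control and 20 mM by the dose of 5 mM, 38 first passed it at 10 mM and 35 at 20 mM alone. Of the 123 falling transcripts, 19 had passed it at 5 mM, 62 first at 10 mM and 42 at 20 mM alone. Without 10 mM replicate 1 the numbers reached first at 10 mM became 43 and 72, and those reached at 20 mM alone became 30 and 32. At 5 mM, 6 of the rising and 18 of the falling transcripts lay on the other side of the control mean.

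The difference between doses was tested directly in the same fit. Between 20 and 5 mM, 55 transcripts differed (0.309%), 19 higher (0.107%) and 36 lower (0.202%) at 20 mM. XM_010106656.1 was among the higher ones, with a log2 change of 1.83 ± 0.20 (SE, limma adjusted p = 0.00227), and XM_010099860.1 among the lower ones, with a log2 change of -3.27 ± 0.36 (adjusted p = 0.00227). XM_010099001.1 had 30.56, 33.13 and 27.63 FPKM with 5 mM and 143.43, 116.54 and 122.03 FPKM with 20 mM, a rise of 2.03 ± 0.22 log2 units (limma adjusted p = 0.00227). Its controls had 18.35, 20.62 and 34.49 FPKM. XM_010109766.1 had 206.37, 155.44 and 149.53 FPKM with 5 mM and 43.96, 18.95 and 15.07 FPKM with 20 mM, a log2 difference of -2.80 ± 0.34 (limma adjusted p = 0.00516). Its controls had 168.68, 146.94 and 267.7 FPKM. In both transcripts, the 20 mM libraries overlapped with neither the 5 mM nor the control libraries. For the 5 mM libraries, the rule that named these transcripts had required this. Leaving out 5 mM replicate 3 brought these 55 calls down to 18, 5 mM replicate 2 to 19, 20 mM replicate 1 to 23 and 20 mM replicate 2 to 26, and leaving out 10 mM replicate 1 brought them up to 83.

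Between 20 and 10 mM, limma called 1 transcript higher (0.00562%) and 0 lower, whereas the unadjusted p was under 0.05 for 763 higher (4.29%) and 971 lower (5.46%) ones. The one called was XM_010100665.1, which no control or 5 mM library listed. Its libraries with 10 mM held 0.84, 0.89 and 1.7 FPKM, and those with 20 mM held 7.99, 11.15 and 16.7 FPKM, 2.56 ± 0.28 log2 units apart (SE, limma adjusted p = 0.0166). Its level at 10 mM is near the range in which few reads stand behind a value. The call was lost without 10 mM replicates 1 or 2 or 20 mM replicates 2 or 3, each of which left 0 calls in this comparison by limma, with a pseudocount of 0.1 and in a fit of the 2 groups compared. Its adjusted p over all alternatives ran from 0.00721 to 0.222. For the 103 transcripts that rose against control the median log2 difference between 20 and 10 mM was 0.58, and for the 123 that fell it was -0.78, against -0.05 over all tested transcripts. Without 10 mM replicate 1 these medians were 0.47, -0.60 and -0.04. The 103 and the 123 were picked for their change in the same 20 mM libraries. That choice favours medians in these directions, so they are descriptions only. A missed threshold does not show that the doses act alike.

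How far the calls rested on single libraries differed between transcripts. Of the 226, 26 that rose and 27 that fell were called in each of the 12 fits that left out 1 library, and 48 were called in none of the 6 fits that left out a control or a 20 mM library. The 26 had a median log2 change of 2.24 and mean levels over the 12 libraries from 1.83 to 270.4 FPKM. The 27 had a median log2 change of -2.55 and mean levels from 1.44 to 313.6 FPKM. XM_010106656.1, XM_010090182.1, XM_010099860.1 and XM_010101516.1 were among these 53. The rule that chose them had required the call in the 6 fits that left out a control or a 20 mM library. Leaving out 20 mM replicate 2 brought the 226 calls down to 69, control replicate 1 to 75, 20 mM replicate 1 to 85, 5 mM replicate 2 to 114 and control replicate 3 to 137.

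**Figure D4:**
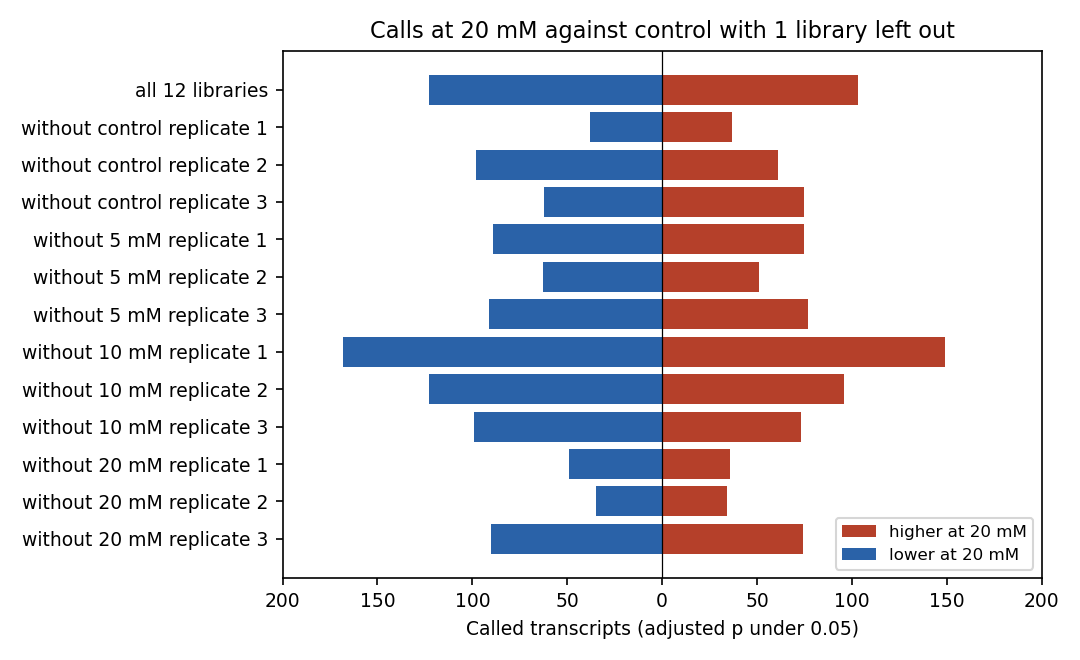
Number of transcripts called higher (red, to the right) and lower (blue, to the left) at 20 mM against control, with all 12 libraries and with each library left out in turn. The total falls from 226 to 69 without 20 mM replicate 2 and to 75 without control replicate 1, and rises to 317 without 10 mM replicate 1.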

How the data were processed

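Messenger RNA of roots was sequenced in 12 libraries, and the authors deposited 1 table of FPKM per transcript for each, per the file headers. The aligner and the build are not given in the sources read here. Listed values start at 0.01, and transcripts that a table does not list were set to 0. Groups and replicate numbers come from the sample titles.

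Values were analysed as log2(FPKM + 1), a scale that understates the change of low transcripts. Of 22727 transcripts, 17782 reached 1 FPKM in 3 or more libraries and were tested. The fit, made with limma 3.58.1 (R 4.3.3, mean-variance trend, no block), held the means of the 4 groups in all 12 libraries and gave 20 mM against control, 5 mM and 10 mM. Adjusted p-values are two-sided Benjamini-Hochberg values over all tested transcripts within a comparison, with a threshold of 0.05. Single values per library were compared by exact permutation tests (scipy 1.17.1), and the adjusted p over the 5 measures was 1 for each. The fit was also run on simulated data, with independent normal noise of the same spread in every library. Unequal libraries and outlying replicates were not simulated, so nothing about these data is drawn from it.

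Relative depth came from 720 sparse transcripts, listed in 4 to 9 libraries at 0.3 FPKM or more. They were kept only where values near the lowest were seen in 3 or more libraries. In them, 90.2% of 4609 values lay within 0.1 of a whole number of reads. The worth of 1 read was set from the lowest values, which therefore lie near a whole number by construction. Of the 1720 values above 1.5 reads, 84.65% lay within 0.1. Reads in total stay unknown, so no counting interval is given.

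In each comparison up to 2 transcripts per direction are named, those with the largest difference in mean FPKM among called ones without overlap whose call held in all 6 fits that left out a compared library, or in the most fits where fewer than 2 held. XM_010100665.1, the one call between 20 and 10 mM, held in 2 of 6. Lists of gene families had been set as patterns in product descriptions and could not be applied without names. The comparison, lists and naming rule were chosen with earlier results of these data known.

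The alternatives were another pseudocount, 2 other filters, median scaling, quantile normalization, no variance trend together with robust moderation, array weights, a replicate block, fits of the 2 groups compared, a minimum change and each library left out.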

Additional observations from a re-analysis of the deposited data

Results flagged for a closer look

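The effect of 20 mM differed from that of 5 mM, by the direct test, in 55 transcripts, with log2 differences of 1.83 for XM_010106656.1, 2.03 for XM_010099001.1, -3.27 for XM_010099860.1 and -2.80 for XM_010109766.1. It differed from that of 10 mM in 1 transcript, XM_010100665.1, with a log2 difference of 2.56. That call was lost in 6 of 21 alternatives, and the level at 10 mM was low (0.84, 0.89 and 1.7 FPKM).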

How the results depend on the processing

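The 4 transcripts named at 20 mM against control kept direction and call in all 22 alternatives, with limma adjusted p from 0.000203 to 0.0486. Those named between 20 and 5 mM did so too, with limma adjusted p from 0.000138 to 0.0376. The naming rule had required the call in the 6 fits without a compared library, and the minimum change reused the same adjusted p. Those alternatives therefore could not fail for these transcripts. XM_010100665.1 kept its call between 20 and 10 mM in 15 of 21. The cause of the shifts that follow was not tested. With array weights the counts were 443 against control, 672 against 5 mM and 99 against 10 mM, and in fits of the 2 groups compared they were 103 and 95 against control and 5 mM. Against 10 mM the count of 1 became 0 with a pseudocount of 0.1, 3 without a filter, 7 where a mean level of 5 FPKM was required and 2 with the replicate block. With 1 library left out, counts ran from 69 to 317 against control, from 18 to 83 against 5 mM and from 0 to 3 against 10 mM. The share of called transcripts whose mean level reached 10 FPKM, 66.8%, was 85.6% where 5 FPKM was required, which itself removes low transcripts, and 59.1% with robust moderation in place of the variance trend, and from 67.7% to 77.7% with 1 library left out. The difference in listed transcripts ran from -323 to -13 with 1 library left out. Same-numbered control and 20 mM libraries did not deviate together (correlations of -0.02, -0.15 and -0.19). These few values, from groups of 3 libraries, cannot settle whether the numbers pair the samples. The replicate block gave 239 calls against control, 177 of them among the 226, and 46 against 5 mM. Leaving a library out leaves groups of 2, which the shared spread covers. Depth limits transcripts near 1 FPKM most.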

Other observations

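Large changes that were not called were frequent. A log2 change of at least 2 in size was seen without a call in 28 transcripts that were higher and 64 that were lower at 20 mM, beside the 87 called changes of that size. In 70 of these 92 the 3 treated and the 3 control libraries did not overlap, where 20.7% of all tested transcripts did not. Their median SE was 0.72, against 0.42 for the called ones. Both sets were picked by the size of the change, and the call itself depends on the SE. The share without overlap and the SE therefore follow in part from the choice and support no further statement.

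The most abundant transcript of the series stood at 14113.06, 14124.53 and 8263.85 FPKM in control roots and at 16706.71, 15106.55 and 19468.18 FPKM at 20 mM. These control and 20 mM values did not overlap, but the log2 change of 0.53 ± 0.39 (SE) did not pass the test (limma adjusted p = 0.541). At 5 mM it stood at 13734.54, 19937.21 and 10263.55 FPKM, and at 10 mM at 13609.05, 7694.88 and 14167.21 FPKM. The highest 5 mM library was thus above every 20 mM library.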
